A study of Mus musculus with 4 samples.

Results

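The S100 genes of mouse chromosome 3 encode small calcium-binding proteins and lie close together in 2 stretches, S100a1 to S100a9 and, further along the chromosome, S100a11 and S100a10. Open chromatin was followed along 10 of these genes (S100a1, S100a13, S100a3, S100a4, S100a5, S100a6, S100a8, S100a9, S100a10 and S100a11) in chondrocytes before and after serial passaging. Every peak in or within 20 kb of one of the 10 genes was taken, whatever its height, which gave 205 of the 455071 peaks called in the 4 libraries. Overlapping peaks of different libraries were merged into 61 sites, out of 170558 sites on chromosomes 1 to 19, X and Y. ATAC-seq, in which the Tn5 transposase cuts and tags accessible DNA, had been run on chondrocytes from knee cartilage of C57Bl/6 mice aged 0 to 4 postnatal days, with 50000 cells per library. Passage 0 (P0) cells had been in culture for less than 24 h, and passage 8 (P8) cells had been passaged serially in DMEM/F12 medium with fetal bovine serum as a model of dedifferentiation, the loss of cartilage character in monolayer. Each passage had 2 libraries, called P0 A, P0 B, P8 A and P8 B here because the peak names carry no replicate number, and values are always given for A before B. Nothing in the labels says that they came from separate animals or cultures. Errors and p-values therefore cover no more than the spread between these libraries, which may be technical.

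S100 proteins bind calcium through paired EF-hand motifs, usually act as dimers, and change shape on binding so that they can grip a target protein. S100a10 is the exception, since it no longer binds calcium and stays locked to annexin A2. S100a4 binds non-muscle myosin and is widely used as a marker of fibroblasts and of cells with a mesenchymal character, S100a6 and S100a11 bind annexins, and S100a1 is known for its part in calcium handling and is made by chondrocytes as well as by muscle. S100a8 and S100a9 form calprotectin, which is stored in large amounts by neutrophils and released in inflammation, where it is sensed by Tlr4 and by Ager, the receptor for advanced glycation end products. The windows also hold parts of genes that are not among the 10, namely S100a2, S100a7a, S100a14, S100a16, Chtop and Snapin, and their sites were kept because the choice was made by position.

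Promoter sequences are given for 5 of the genes, and peaks covered them in part or not at all. The 250 bases before the transcript start are given 5′ to 3′ in the direction of the gene (RefSeq, GRCm38.p6), for S100a4, S100a6 and S100a11, whose starts held a peak in all 4 libraries, and for S100a8 and S100a9, whose starts held none in any library and which were added for contrast after the peaks had been seen. Capitals mark the letters of 6 motifs searched on both strands, where no match overlapped another. TGANTCA stands for the AP-1 family of Fos and Jun. Runx factors are represented by TGNGGT and the Sox family, which includes the cartilage regulator Sox9, by ACAANG. For C/EBP factors, prominent in myeloid cells, the letters were TTGCNNAA. Sp and KLF factors are represented by GGGCGG, and TATAAA is the TATA box.
S100a4, chr3:90603520-90603769, plus strand: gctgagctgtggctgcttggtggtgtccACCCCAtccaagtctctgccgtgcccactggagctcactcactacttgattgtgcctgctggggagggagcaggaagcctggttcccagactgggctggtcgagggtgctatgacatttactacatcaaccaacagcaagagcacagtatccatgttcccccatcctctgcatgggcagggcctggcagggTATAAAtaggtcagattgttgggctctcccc
S100a6, chr3:90612644-90612893, plus strand: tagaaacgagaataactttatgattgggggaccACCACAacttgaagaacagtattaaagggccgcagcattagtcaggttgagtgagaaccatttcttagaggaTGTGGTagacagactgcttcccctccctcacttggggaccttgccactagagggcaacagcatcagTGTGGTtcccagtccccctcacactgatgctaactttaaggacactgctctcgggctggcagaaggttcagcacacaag
S100a11, chr3:93520246-93520495, plus strand: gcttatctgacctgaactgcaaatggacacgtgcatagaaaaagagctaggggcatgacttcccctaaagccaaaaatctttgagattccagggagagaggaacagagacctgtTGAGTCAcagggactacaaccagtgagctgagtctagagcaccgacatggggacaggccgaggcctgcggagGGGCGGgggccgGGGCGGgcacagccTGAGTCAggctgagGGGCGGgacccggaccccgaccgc
S100a8, chr3:90668821-90669070, plus strand: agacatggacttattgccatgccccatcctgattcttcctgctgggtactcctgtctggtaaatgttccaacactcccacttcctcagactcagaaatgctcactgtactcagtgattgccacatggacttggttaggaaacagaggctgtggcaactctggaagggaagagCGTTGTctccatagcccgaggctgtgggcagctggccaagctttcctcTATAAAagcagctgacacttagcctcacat
S100a9, chr3:90695722-90695971, minus strand: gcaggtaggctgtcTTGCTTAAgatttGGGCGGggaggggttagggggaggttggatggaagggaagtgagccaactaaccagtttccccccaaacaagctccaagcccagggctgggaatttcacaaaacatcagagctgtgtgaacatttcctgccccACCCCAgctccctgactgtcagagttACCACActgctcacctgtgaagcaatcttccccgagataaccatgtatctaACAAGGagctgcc

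The S100a11 start, the highest by mean pileup among the starts of these genes, held the AP-1 letters TGAGTCA at 2 places and the Sp/KLF letters at 3, and 6.75% of 32851 promoters of the same length held TGANTCA. The S100a4 start held TATAAA from base -31 to -26 and the S100a8 start from -30 to -25, a motif found in 12.4% of promoters. RUNX letters occurred at 5 of 12 annotated starts of 9 of the genes, with 3 places before S100a6, 1 before S100a4, 2 before S100a9 and the rest before S100a1 and S100a3, and TGNGGT was found in 40.1% of promoters. Before S100a9 lay the only C/EBP letters among these 12 starts, against 9.56% of promoters. SOX letters occurred at 4 of the 12 starts and in 36.3% of promoters, and GGGCGG at 3 of 12 and in 32.7%. These letters describe the sequence and do not show that a factor was bound. The GC content of the 12 promoters ran from 46.0 to 61.6% (median of all promoters, 52.4%). Of the 250 bases printed for S100a11, peaks covered 244 and 234 at P0 and 173 and 211 at P8. For S100a6 they covered 231 and 169 at P0 and 216 and 160 at P8. For S100a4 they covered 134 and 149 at P0 and 160 and 134 at P8, and for S100a8 and S100a9 0 in each library. The RUNX letters before S100a4, from base -222 to -217, lay outside the peak in each library.

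Each peak has a pileup, a fold enrichment and a length. The summit pileup is the number of tags stacked at the highest point, without scaling for depth. The fold enrichment is that pileup over the local background of the same library, each with 1 tag added, and the length is that of the called peak. Depth was inferred for each library from the lowest local background among its peaks, and by this measure it differed between the passages. This background was 194 tags per 10 kb for P0 A, 162 for P0 B, 140 for P8 A and 134 for P8 B. P0 A was therefore the deepest by this measure, and depth raises the number and width of called peaks even where accessibility is equal. Markers of the labelled cell type were open. Peaks lay within 1 kb of an end of 7 of 8 chondrocyte markers in all 4 libraries (87.5%, against 58.2% of protein-coding genes). Matn1 (matrilin 1, a cartilage matrix protein) had peaks at P0 only. The highest pileups of the 8 genes summed to 475 and 438 tags at P0 and 163 and 169 at P8. In such bulk libraries, fewer cells with an open site and less opening per cell cannot be told apart.

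The S100 windows held about as many peaks at P8 as at P0, whereas over the whole genome both P8 libraries held fewer. The windows held 54 peaks in P0 A, 48 in P0 B, 49 in P8 A and 54 in P8 B. The ranges of the passages overlapped, with a ratio of P0 to P8 of 0.990 ± 0.107 (propagated SD, n = 2 per passage, exact two-sided permutation test, p = 1). Over chromosomes 1 to 19, X and Y the same libraries held 144356 and 118849 peaks at P0 and 88578 and 98647 at P8, a ratio of 1.41 ± 0.22 (exact permutation test, p = 0.333, the smallest that 2 against 2 libraries allow). The share of a library's peaks that lay in the S100 windows was higher in both P8 libraries than in both P0 libraries, by 41.5% on average (exact permutation test, p = 0.333). The peaks themselves were shorter at P8. Their median length in bp was 344 in P0 A, 330 in P0 B, 257 in P8 A and 246 in P8 B. Together they covered 20168 bp in P0 A, 17663 bp in P0 B, 14072 bp in P8 A and 15146 bp in P8 B. That is a ratio of 1.29 ± 0.139 (exact permutation test, p = 0.333), against 1.66 ± 0.318 for all peaks. Number and length are linked, since a wide P0 peak could match a pair of narrower P8 peaks, as at S100a10 and the Chtop start. Equal numbers of peaks therefore need not be equal numbers of open sites. The S100 peaks had median fold enrichments of 6.04 and 6.42 at P0, and of 5.65 and 5.99 at P8.

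**Figure D1:**
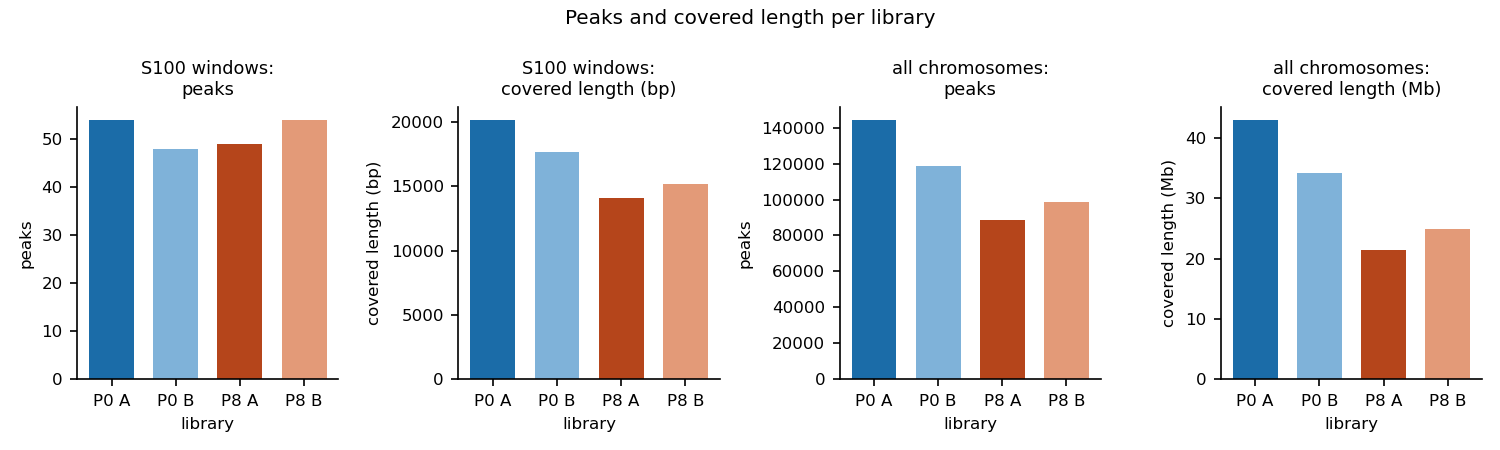
Bars give, for each of the 4 libraries, the number of peaks and the length they cover (bp or Mb), within 20 kb of the 10 S100 genes (left pair) and on all chromosomes (right pair). Peak numbers in the S100 windows overlap between passages (48 to 54), whereas over all chromosomes both P0 libraries stand above both P8 libraries in number and length.

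Most S100 sites were shared by all libraries. Of the 61 sites, 39 (63.9%) had a peak in all 4 libraries, against 32.4% of all sites and 35.0% of sites in or within 20 kb of any protein-coding gene. A peak in each P0 library but in neither P8 library was found at 2 sites (3.28%, against 17.1% of all sites and 16.6% of those near a gene). The reverse, a peak in each P8 library but in neither P0 library, was found at 1 site (1.64%, against 1.82% and 1.54%). S100 peaks were also taller than most. Their median pileups were 28 and 26 tags at P0 and 20 and 19 at P8. For all peaks the medians were 16 and 15 at P0 and 13 and 14 at P8. The part of peak height in these shares was not tested. Of the other 19 sites, 6 had a peak in P0 A only, 6 in P8 B only, 1 in P0 B only, and 6 had other mixtures of libraries. Within 1 kb of an end of the 10 genes lay 12 sites, of which 11 were shared by all 4 libraries, against 56.6% of such sites of any protein-coding gene. None of the 12 was limited to P0 (against 10.1%) or to P8 (against 0.55%) in that sense. The stretch from S100a1 to S100a9 held 26 shared sites of 42, and S100a11 and S100a10 held 13 of 19.

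**Figure D2:**
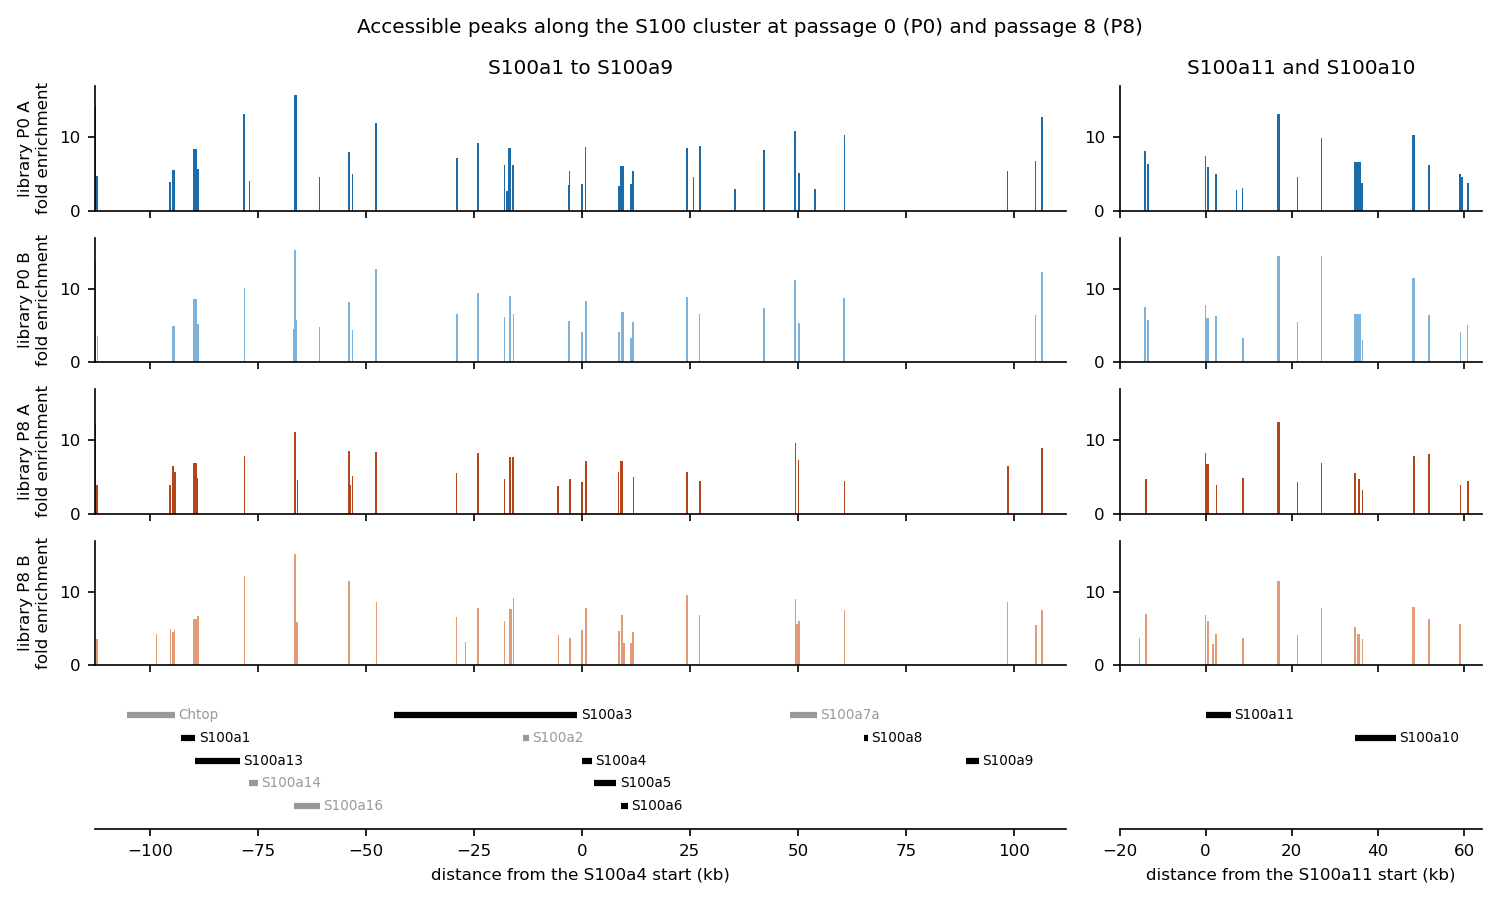
Each bar is a peak of 1 library, placed by its distance in kb from the S100a4 start (left) or the S100a11 start (right), with its fold enrichment over local background as height, and gene spans are drawn below, the 10 genes in black and neighbours in grey. Bars narrower than 0.35 kb were widened to be visible, and the 2 positions near 35 and 42 kb lie between windows and were not counted. Most positions carry a bar in all 4 libraries, and no peak lies in or within 1 kb of S100a8 or S100a9.

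S100a4, S100a5 and S100a6 lie next to each other. S100a4 had a peak over its start, chr3:90603610-90603897, with summit pileups of 20 and 18 tags at P0, and of 18 and 21 tags at P8. Its fold enrichments were 3.60 and 4.09 at P0 and 4.34 and 4.75 at P8, so that both P8 libraries lay above both P0 libraries on that scale but not in raw tags. Inside S100a4, 864 bp past the start, a stronger site reached 49 and 38 tags at P0 and 31 and 36 at P8, with fold enrichments of 8.60 and 8.32 and of 7.19 and 7.82. S100a6 had a broad peak over its start and first bases, chr3:90612663-90613521, with 53 and 48 tags at P0 and 42 and 42 at P8. Its fold enrichments were 6.13 and 6.87 at P0 and 7.17 and 6.79 at P8, which overlap. A smaller site centred 609 bp before the S100a6 start, chr3:90612134-90612436, held 28 and 28 tags at P0 and 33 and 29 at P8. It was the only 1 of the shared S100 sites where raw tags were higher in both P8 libraries than in both P0 libraries, whose inferred depth was greater. Its fold enrichments were 3.29 and 4.07 at P0, and 5.65 and 4.71 at P8. Past the far end of S100a6 lay chr3:90615407-90615723, with 46 and 38 tags at P0 and 29 and 27 at P8, and chr3:90614820-90615280, with 31 and 22 tags at P0 and 18 in P8 B but no peak in P8 A. S100a5, a family member known from olfactory neurons, had no site inside the gene, and no peak at its annotated start in any library. The site before S100a6 lies 350 bp beyond the far end of S100a5, so these data do not separate the 2 genes there.

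S100a1 and S100a13, a protein known for its part in the export of FGF1, start in opposite directions and share 1 peak, chr3:90513794-90514635, which covered both promoters. It held 71 and 61 tags at P0, but 32 and 31 tags at P8, the widest gap between passages among the starts of the 10 genes on this scale. The fold enrichments were 8.43 and 8.55 at P0 and 6.93 and 6.33 at P8. Next to it, inside S100a13, lay a smaller site with 41 and 32 tags at P0 and 20 and 29 at P8. Neither site overlapped between passages in raw tags.

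S100a3, which is known from the hair cuticle, has 4 annotated starts in a span of 42351 bp that includes S100a2. The start at 90586952 held one of the 5 highest sites, chr3:90586750-90587494, with 74 and 66 tags at P0 and 41 and 42 at P8 and fold enrichments of 8.48 and 8.98 at P0 and 7.71 and 7.71 at P8. Directly beside it, chr3:90587535-90588080 ran the other way in fold enrichment, with 6.25 and 6.60 at P0 and 7.76 and 9.12 at P8, from 54 and 48 tags at P0 and 41 and 50 at P8. No other annotated start of S100a3 lay inside a peak. The single site with a peak in each P8 library but in neither P0 library also lay in S100a3, at chr3:90598056-90598377. It was weak, with 10 and 11 tags and fold enrichments of 3.72 and 4.16. The span held 4 further shared sites, from chr3:90574602-90575132 to chr3:90600578-90601123, with log2 differences in the fit described below from -0.14 to 0.33, none of which passed the test, and 2 weak sites of 1 library each.

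S100a11 had 72 and 61 tags at P0 and 50 and 45 at P8 over its start, chr3:93520252-93520611. The fold enrichments of 7.47 and 7.86 at P0 and 8.25 and 6.89 at P8 overlapped. A neighbouring site just inside the gene had 59 and 48 tags at P0 and 42 and 40 at P8, with fold enrichments of 5.96 and 6.05 and of 6.83 and 6.02. Further inside S100a11, chr3:93522729-93523132 was lower at P8 on both measures, with 53 and 53 tags at P0 and 25 and 30 at P8 and fold enrichments of 4.94 and 6.27 and of 3.85 and 4.27. A weak peak at chr3:93522032-93522145 was called in P8 B only, with 19 tags. S100a10 had a single wide site at its lower-numbered end, chr3:93554837-93556499, where each P0 library had 1 peak, of 1549 and 1541 bp, and each P8 library had 2. Its highest pileups were 70 and 54 tags at P0 and 41 and 41 at P8. A second site in S100a10, chr3:93556615-93556918, held 39 and 25 tags at P0 and 24 and 29 at P8, which overlap. Between these genes, 10758 bp from S100a11, stood chr3:93537046-93537813, with 74 and 67 tags at P0 and 49 and 50 at P8 and fold enrichments of 13.2 and 14.5 and of 12.6 and 11.4. It was the highest S100 site outside a gene, and the site at an end of the neighbour Snapin, with 86 and 71 tags at P0 and 48 and 57 at P8, the highest of all 61.

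S100a8 and S100a9 stood apart. Neither gene had a peak inside it, or closer than 1 kb to an end, in any of the 4 libraries. Judged by gene ends alone, at the same distance, the other 8 genes were open in all 4 libraries. That is 80%, against 58.2% of protein-coding genes, with 30.9% open in none. These 8 genes were not independent, because neighbours shared sites. S100a1 and S100a13 shared their start peak, and the only site counted for S100a3 was the S100a4 start. The 2 sites counted for S100a5 were also counted for S100a6. The nearest sites lay 4483 bp from S100a8 and 6430 bp from S100a9, and the 37.6 kb from 90664589 to 90702150 that holds both genes was the longest stretch without a peak between S100a1 and S100a9. A peak list gives no value where no peak was called, so a level below the caller's threshold was not measured here. Of 13 neutrophil and macrophage markers, 10 had no peak within 1 kb of an end in any library, among them Ptprc, Itgam, Csf1r, Mpo, Elane and Ly6g, and Cd14, Lyz2 and Camp had one in all 4. The pileups of those 3 summed to 63 and 46 tags at P0 and 42 and 56 at P8. In the limma fit described below, 1 of their 4 shared sites was called higher at P8 (against 13.7% of all shared sites) and 0 higher at P0 (against 8.93%), with 2 and 0 at an unadjusted p under 0.05. The called site lies by Camp (cathelicidin, an antimicrobial protein of neutrophil granules), with 17 and 8 tags at P0 and 19 and 23 at P8, a log2 difference of 1.48 (limma adjusted p = 8.46e-05), or 1.21 (limma adjusted p = 0.000204) with the background as scale. Cd14 and Lyz2 had values of 0.14 and -0.06 (limma adjusted p = 0.678 and 0.898). Tlr4 had a peak in all 4 libraries, with 45 and 32 tags at P0 and 27 and 31 at P8. Ager had one in the P0 libraries only, of 14 and 10 tags at different positions.

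**Figure D3:**
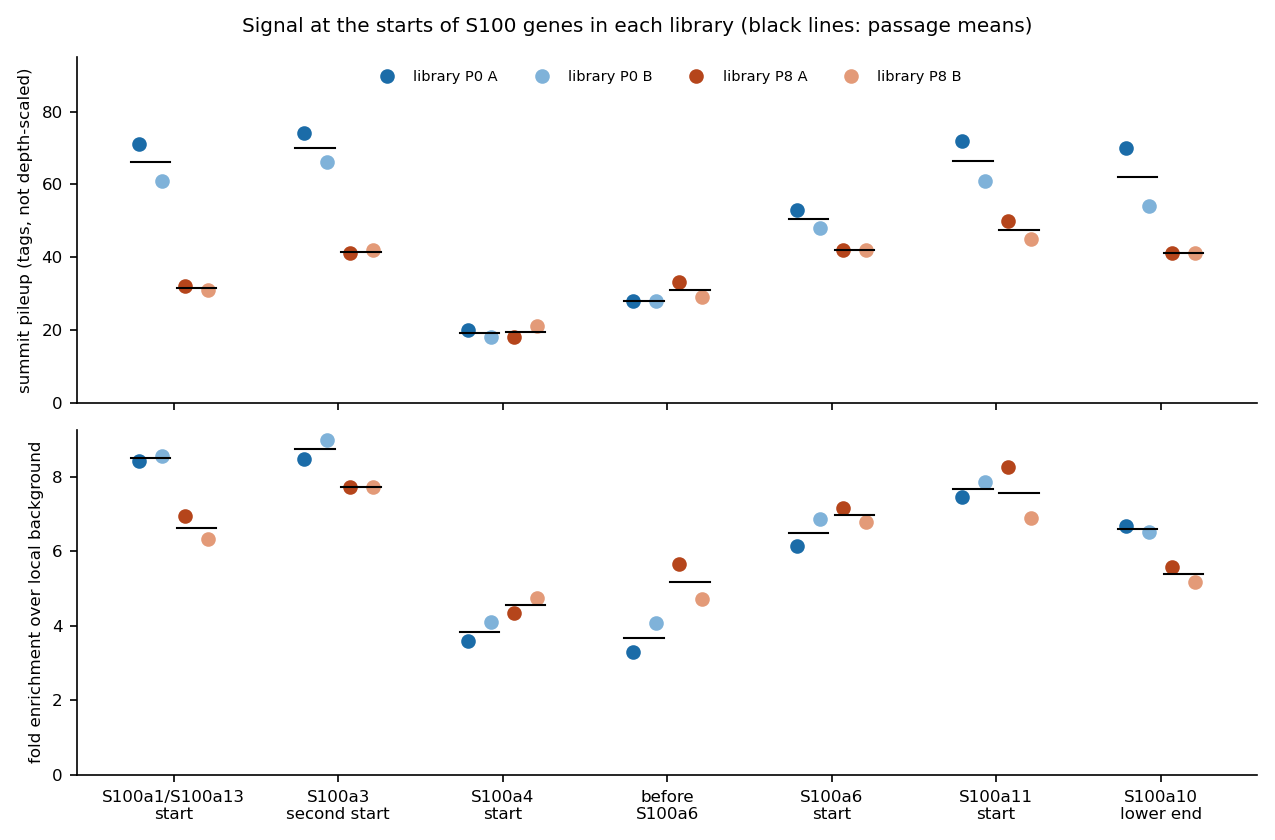
Points give the summit pileup in tags (top) and the fold enrichment over local background (bottom) of each library at 7 sites at or just before starts or ends of S100 genes, with P0 in blue and P8 in orange, and black lines give the mean of each passage. In raw tags P0 lies above P8 at 5 of the 7, while in fold enrichment the S100a4 start and the site before S100a6 lie higher at P8 and the S100a1/S100a13, S100a3 and S100a10 sites lie higher at P0.

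Sites with a peak in all 4 libraries were then compared between the passages with limma on the log2 summit pileup, each library centred on its median over all 55294 such sites. A value of 0 thus means that a site moved like the median site. The SEs and p-values of limma rest mostly on a variance estimated over all fitted sites (33.5 prior against 2 residual degrees of freedom). The spread between libraries at a single site adds little to them. Among the 39 S100 sites, 8 were higher at P8 (20.5%, against 13.7% of all sites) and 1 was higher at P0 (2.56%, against 8.93%) at a Benjamini-Hochberg adjusted p under 0.05. The median log2 difference, P8 minus P0, was 0.06 over the 39 sites and 0.02 over all sites, and the S100 values ran from -0.43 to 0.97. The choice of scale matters. When pileups were divided by each library's background instead, the median of all sites fell to -0.25. On that scale 3 of the 39 sites were higher at P8 (against 4.75% of all sites) and 4 higher at P0 (against 21.2%). The prior degrees of freedom were infinite there, so a site's own spread did not enter its p-value. Fold enrichments were also fitted, centred on each library's median over the same sites, so these values too are relative to the median site. That fit called 4 higher at P8 (against 6.23%) and 0 higher at P0 (against 3.76%). At an unadjusted p under 0.05 it had 8 in either direction. Without P0 A, limma called 0 of 55749 sites anywhere (12600 at an unadjusted p under 0.05), and 0 of the S100 sites (11 unadjusted). The 9 S100 sites called with all libraries kept their direction and had log2 values from -0.45 to 0.99 without P0 A, against -0.43 to 0.97 with it. Leaving out P0 A or P0 B leaves a single P0 library in either case, and why the calls were lost without P0 A was not tested. The fits with the background as scale and on fold enrichments were not repeated without P0 A.

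The S100a4 and S100a6 starts lay among the sites higher at P8 relative to the median site. The site before S100a6 differed by a log2 value of 0.78 ± 0.17 (SE, limma, adjusted p = 0.00093). It kept its call with the background as scale (0.52, limma adjusted p = 0.0465) and on centred fold enrichments (0.77, limma adjusted p = 0.024). The S100a4 start differed by 0.67 ± 0.21 (SE, limma, adjusted p = 0.0187). With the background as scale the value was 0.41 (limma adjusted p = 0.215), and on centred fold enrichments 0.51 (limma adjusted p = 0.0799). The call did not hold on either. The S100a6 start differed by 0.37 ± 0.14 (SE, limma, adjusted p = 0.0493) and did not pass on either of those scales (limma adjusted p = 0.654 and 0.235). The site inside S100a4 had a log2 difference of 0.27 (limma adjusted p = 0.183).

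In S100a3 the site beside the open start was higher at P8 by 0.47 ± 0.14 (SE, limma, adjusted p = 0.0124). With the background as scale the value was 0.20 and the call was lost (limma adjusted p = 0.364). On centred fold enrichments it was 0.66 and the call held (limma adjusted p = 0.031). The open start itself had a value of -0.12 (limma adjusted p = 0.587). Called higher at P8 were also 4 sites away from the starts of the 10 genes. A site 2550 bp beyond S100a11, chr3:93528838-93529204, had the largest value among the 39, 0.97 ± 0.24 (SE, limma, adjusted p = 0.00408), from low pileups of 15 and 12 tags at P0 and 19 and 15 at P8. A site 6508 bp from S100a16, chr3:90549659-90550240, differed by 0.88 ± 0.20 (SE, limma, adjusted p = 0.00167), with fold enrichments of 8.02 and 8.26 at P0 and 8.48 and 11.5 at P8. The others lay in S100a7a (0.87 ± 0.24, SE, limma, adjusted p = 0.0085) and 7454 bp beyond S100a10 (0.68 ± 0.17, SE, limma, adjusted p = 0.00379). With the background as scale the first 2 of these 4 kept their call (limma adjusted p = 0.0416 and 0.0429) and the other 2 did not (0.0808 and 0.117).

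The shared start of S100a1 and S100a13 was the only S100 site called higher at P0. Its log2 difference was -0.43 ± 0.14 (SE, limma, adjusted p = 0.0243), and -0.69 (limma adjusted p = 0.000945) with the background as scale. On centred fold enrichments the value was -0.09 (limma adjusted p = 0.807), although before centring both P0 libraries lay above both P8 libraries. Inside S100a11, chr3:93522729-93523132 had a value of -0.32 (limma adjusted p = 0.119), and with the background as scale it was called higher at P0, at -0.58 (limma adjusted p = 0.0111). Of the 4 sites called higher at P0 on that scale, the others were S100a1/S100a13, the main S100a16 site and chr3:90710055-90710455 beyond S100a9 (-0.67, limma adjusted p = 0.0232, against -0.41 and 0.133 on the median scale). The S100a11 start, the S100a10 end and the site between these genes had log2 differences of 0.15, 0.05 and 0.13 and did not pass the test (limma adjusted p = 0.462, 0.827 and 0.540). Sites that P8 lacked cannot enter this fit. They were chr3:93506874-93507383, 13113 bp before S100a11, with 20 and 15 tags at P0, and chr3:90542863-90543053 at an end of S100a16, with 10 and 10 tags.

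**Figure D4:**
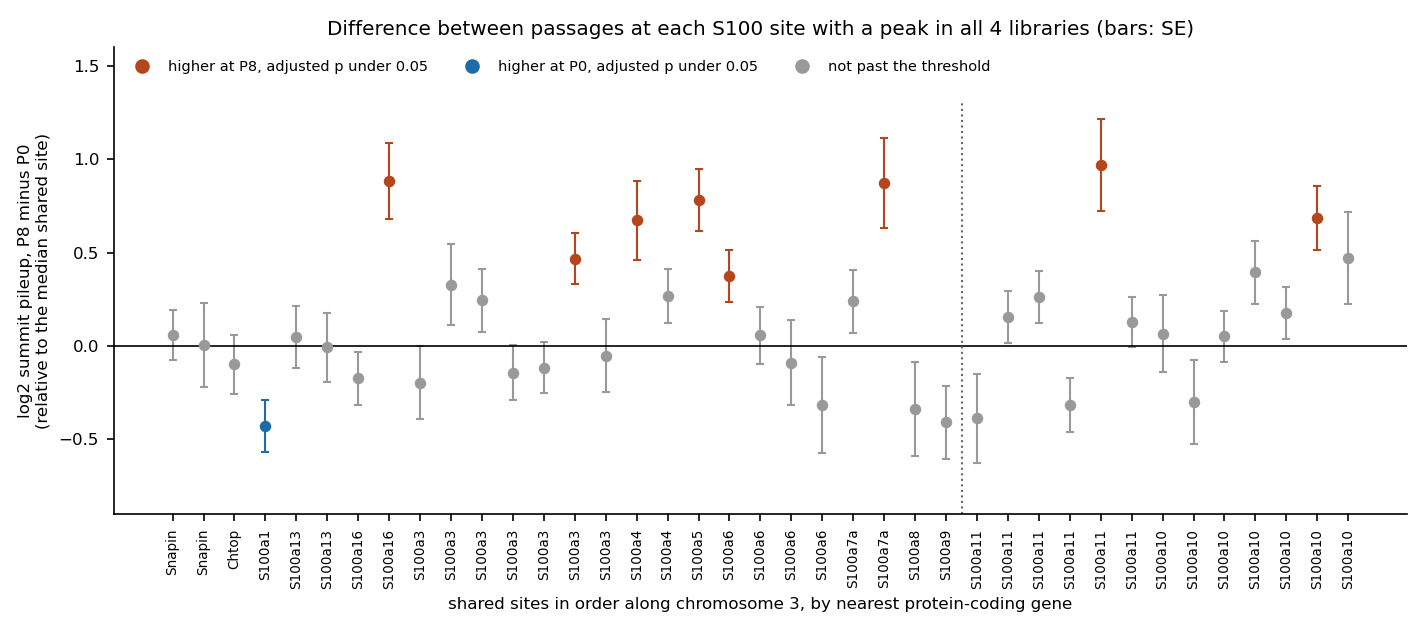
Points give the log2 difference in summit pileup, P8 minus P0, at the 39 S100 sites with a peak in all 4 libraries, in chromosome order and labelled by the nearest protein-coding gene, relative to the median shared site, with bars of 1 SE from limma. The 8 orange points are higher at P8 and the 1 blue point, at S100a1 and S100a13, is higher at P0 at an adjusted p under 0.05, and the dotted line separates S100a1 to S100a9 from S100a11 and S100a10.

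Counted without a model, fold enrichment was higher in both P8 libraries than in both P0 libraries at 6 of the 39 sites (15.4%, against 11.6% of all shared sites). It was higher in both P0 libraries at 20 of the 39 (51.3%, against 49.9%). These shares lie near those of the genome, so fold enrichment by this count does not set the S100 sites apart. With pileup over background the counts were 7 (against 15.5%) and 19 (against 50.3%).

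The chromosome between the 2 stretches gives the local contrast. It spans 2.78 Mb and holds 56 protein-coding genes, among them many of the epidermal differentiation genes of skin. Peaks were sparse there, at 2.23 and 1.98 per 100 kb at P0, and at 1.72 and 1.51 per 100 kb at P8. The stretch from S100a1 to S100a9 held 17.4 and 15.1 per 100 kb at P0 and 14.7 and 16.9 at P8, and that of S100a11 and S100a10 held 20.2 and 17.8 at P0, with both P8 libraries between those values. Of the 90 sites between, 19 were shared by all 4 libraries (against 32.4% of all sites). Peaks lay in both P0 libraries alone at 15 (against 17.1%) and in both P8 libraries alone at 3 (against 1.82%). No peak lay within 1 kb of an end of 50 of the 56 genes in any library (89.3%, against 30.9% of protein-coding genes). Lor (loricrin, a protein of the cornified envelope) and Crct1 had one in all 4, with 38 and 41 tags at P0 and 23 and 23 at P8 for Lor.

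Other S100 genes and the partners of S100 proteins were looked up by the same distance of 1 kb from a gene end. Of 6 other S100 genes, S100a16 and S100b had a peak in all 4 libraries, S100a7a and S100a14 in P0 A only, and S100g and S100z in none. S100a2 was not among these 6, and its sites were not told apart from those of S100a3. S100b, on chromosome 10, is a long-used marker of chondrocytes as well as of glia. Its site at chr10:76253415-76254003 held 65 and 54 tags at P0 and 14 and 23 at P8. That is a log2 difference of -1.09 ± 0.16 (SE, limma, adjusted p = 1.67e-05) relative to the median site, and -1.35 (limma adjusted p = 1.63e-09) with the background as scale. Another S100b site, at chr10:76262098-76262826, had a value of 0.03 (limma adjusted p = 0.920). At S100a16 the highest site held 68 and 57 tags at P0 and 30 and 42 at P8, a log2 difference of -0.17 (limma adjusted p = 0.406), or -0.44 (limma adjusted p = 0.0403) with the background as scale.

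Of 8 partners and receptors, 6 had a peak in all 4 libraries (75%, against 58.2% of protein-coding genes). Of their 8 shared sites, limma called 2 higher at P8 (against 13.7% of all shared sites) and 0 higher at P0 (against 8.93%). At an unadjusted p under 0.05 there were 3 and 0. With the background as scale limma called 1 (against 4.75%) and 1 (against 21.2%). A further 3 of the list's 17 sites had a peak in each P0 library and in neither P8 library, so the fit cannot take them. Over all sites this share was 17.1%, and over sites within 1 kb of a gene end 10.1%. The 3 lay 1 each at Anxa1, Anxa2 and Bsg. Both sites called higher at P8 were at Anxa1 (annexin A1, a calcium-dependent membrane binder that S100a11 can hold). The site at chr19:20371871-20372621 had 17 and 17 tags at P0 and 36 and 35 at P8, a log2 difference of 1.70 ± 0.18 (SE, limma, adjusted p = 1.03e-07), and 1.43 (limma adjusted p = 2.76e-08) with the background as scale. The site of P0 alone at Anxa1, chr19:20389764-20389994, had 36 and 26 tags. Anxa2, the partner of S100a10, had 44 and 36 tags at P0 and 20 and 22 at P8, a log2 difference of -0.29 (limma adjusted p = 0.201), or -0.55 (limma adjusted p = 0.0343) with the background as scale. Myh9, the heavy chain of the myosin that S100a4 binds, had 72 and 70 tags at P0 and 47 and 56 at P8, a log2 difference of 0.17 (limma adjusted p = 0.408). Ahnak, a scaffold held by S100a10 and annexin A2, had a peak in all 4 libraries with values of 0.33 and 0.14 at its shared sites (limma adjusted p = 0.0875 and 0.541). Bsg (basigin) had -0.05 (limma adjusted p = 0.853), and Cd36 had no peak.

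Of 6 fibroblast markers, Col1a1, Col1a2 and Col3a1 (chains of fibrillar collagens) had a peak in all 4 libraries (50%, against 58.2% of protein-coding genes). The pileups of the whole list summed to 108 and 96 tags at P0 and 69 and 70 at P8. Pdgfra, a receptor of fibroblasts, had 25 and 21 tags at P0 and no peak at P8, and Dpt had no peak. Limma called 2 of the list's 3 shared sites higher at P8 (against 13.7% of all shared sites) and 0 higher at P0 (against 8.93%). At an unadjusted p under 0.05 there were 2 and 0. With the background as scale limma called 0 in either direction (against 4.75% and 21.2%). Another 2 of the list's 10 sites, both at Pdgfra, had a peak in each P0 library and in neither P8 library. Over all sites this share was 17.1%, and over sites within 1 kb of a gene end 10.1%. Of the 11 shared sites of the chondrocyte markers, 0 were called higher at P8 (against 13.7%) and 7 higher at P0 (against 8.93%). Unadjusted p-values under 0.05 numbered 0 and 8. With the background as scale the calls were 0 (against 4.75%) and 10 (against 21.2%). A further 5 of that list's 20 sites had a peak in each P0 library and in neither P8 library. The shares to set beside this are again 17.1% and 10.1%. Peaks in all 4 libraries were found at 1 of 3 endothelial and 2 of 4 keratinocyte markers (against 58.2% of protein-coding genes). Sites of the chondrocyte and fibroblast lists differed between passages alongside the calls at S100a4, S100a6 and S100a1/S100a13, and their part in those results was not tested.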

How the data were processed

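Reads (50 bp, paired) had been mapped by the authors with Bowtie2, peaks had been called library by library with MACS2 defaults, and the build is mm10 (GRCm38) per the labels. For each peak they deposited the position, the summit pileup (a signal in tags), the fold enrichment over local background, and the −log10 p-value and −log10 q-value (a score). A further deposited table of their DiffBind comparison (log2 fold changes, p-values and FDR) was not used. Libraries were told apart by peak names, and 0 columns of values were left out. Depth was inferred from the lowest local background among each library's peaks, and 4641 peaks outside chromosomes 1 to 19, X and Y were dropped.

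Peaks overlapping by at least 1 bp were merged, and genes and promoters came from RefSeq tables (GRCm38.p6), which gave no promoter for S100a10. Sites with a peak in all 4 libraries were fitted with limma 3.58.1 (R 4.3.3, trend) and Benjamini-Hochberg adjustment over all of them, without a replicate block and with 2 residual degrees of freedom, and the code was tested on simulated data. Other values used Python 3.11.15 and scipy 1.17.1. Genes, lists and tests were chosen with earlier results of these data known. Named were the 10 genes with sites in or within 1 kb of them, and, within 20 kb, sites of 1 passage only, sites called by limma and the 5 highest by mean pileup.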

Additional observations from a re-analysis of the deposited data

How the results depend on the processing

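No paired analysis was possible because the peak names carry no replicate number, so a replicate block could not be fitted. The ratios of P0 to P8 in peaks and in covered length moved by less than the spread between libraries in each alternative tried. A window of 5 kb left 24 shared sites, 0 of P0 only and 12 with higher fold enrichment at P0, and one of 50 kb gave 5 of P0 only and 2 of P8 only. A −log10 q of at least 5, or a minimum overlap of 50% of the shorter peak, gave 1 site of P0 only and 0 of P8 only. Leaving out 1 library at a time gave 4 to 9 sites of P0 only and 1 to 7 of P8 only.

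The limma calls over all sites, higher at P8 and higher at P0, were 7551 and 4940, and became 2625 and 11726 with background scaling, 2820 and 2277 with quantile normalization, 3447 and 2078 on fold enrichments, and 3359 and 2144 above the median pileup, where 27643 sites were tested. With 5 tags added before the log they were 8997 and 6160. Without 1 library they ran from 0 to 7388 and from 0 to 5748, with 0 and 0 without P0 library A. The S100 calls, 8 and 1, became 3 and 4 (background), 4 and 0 (quantile), 4 and 0 (fold enrichment), 7 and 2 (5 tags added) and 5 and 1 (above the median pileup, 27 sites tested), and without 1 library ran from 0 to 7 and from 0 to 1. The S100 median log2 difference of 0.06 became -0.21 (background), 0.090 (quantile), 0.092 (fold enrichment), 0.016 (5 tags added) and 0.13 (above the median pileup), and without 1 library ran from 0.052 to 0.23. The cause of these shifts was not tested. All 9 called S100 sites kept their direction wherever they were fitted. Of the 9, 5 stayed called without P0 library B, 3 without P8 library A, 7 without P8 library B and 0 without P0 library A (limma adjusted p from 0.166 to 0.301). Keeping peaks that would pass at the lowest background changed no S100 count of shared or passage-limited sites, nor did leaving out Ilf2, Snapin and Chtop change those of 1 passage (chosen after seeing the data, 36 shared sites of 55).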
